A study of Homo sapiens with 4 samples.

Results

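The NF-kB genes described here are 10 genes, all found in the deposited table of 16057 genes by an exact match of their symbols. They are the Rel subunits RELA, NFKB1, RELB and NFKB2, the inhibitors NFKBIA and NFKBIE, the feedback regulator TNFAIP3, and the noncanonical pathway's kinase MAP3K14 with its regulators TRAF3 and BIRC3. Each was measured in 4 RNA sequencing libraries of MM.1S cells, a long-established line grown from a human multiple myeloma. In 2 libraries the cells had received 350 nM JG342, which inhibits the HSP70 chaperone allosterically, and in 2 libraries the solvent DMSO, both for 26 h. The series describes the libraries as biological duplicates and uses a single line, so the replicate spread is that of this line only.

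NF-kB transcription factors are dimers of Rel proteins. In the canonical pathway RELA and the processed product of NFKB1 are held in the cytoplasm by inhibitors such as IkB-alpha (NFKBIA) and are released when the IKK complex marks the inhibitor for the proteasome. In the noncanonical pathway TRAF3, TRAF2 and the ubiquitin ligases cIAP1 and cIAP2 (BIRC2, BIRC3) keep the kinase NIK (MAP3K14) low, and once NIK accumulates it triggers the processing of the NFKB2 precursor, which then acts with RELB. Myeloma cells often carry lesions in this circuit, and several of the genes, among them NFKBIA, TNFAIP3, BIRC3 and NFKB2, are themselves transcribed under NF-kB.

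The promoters were searched for the sequence that NF-kB dimers recognise. RefSeq promoter windows (GRCh38.p14, 250 bases before to 50 bases after a transcription start) were found for 8 of the 10 genes, and 6 of these 8 genes held the NF-kB consensus motif (10 bases, searched on both strands) in at least 1 window, against 13.3% of the 27305 genes with a window. By window the count was 7 of 12, against 11.3% of all 35116. One stretch is shown for each of these 6 genes, because their transcript levels can be set beside it below. Capitals mark the motif in the direction of the gene, so a motif on the opposite strand appears as its reverse complement.
TNFAIP3, chr6:137867172-137867233, plus strand: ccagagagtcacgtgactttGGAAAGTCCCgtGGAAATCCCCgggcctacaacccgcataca
BIRC3, chr11:102317265-102317378, plus strand: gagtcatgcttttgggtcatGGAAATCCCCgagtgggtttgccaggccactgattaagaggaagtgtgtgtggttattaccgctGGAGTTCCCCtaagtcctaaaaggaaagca
NFKBIA, chr14:35404801-35404850, minus strand: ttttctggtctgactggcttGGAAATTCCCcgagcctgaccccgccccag
NFKB2, chr10:102394451-102394529, plus strand: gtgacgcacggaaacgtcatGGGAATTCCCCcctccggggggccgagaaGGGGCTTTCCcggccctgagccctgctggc
NFKB1, chr4:102501290-102501339, plus strand: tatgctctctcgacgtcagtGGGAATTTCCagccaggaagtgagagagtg
TRAF3, chr14:102777396-102777445, plus strand: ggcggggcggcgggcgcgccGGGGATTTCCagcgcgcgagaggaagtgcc

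TNFAIP3 and BIRC3 each held 2 motifs, the first at positions -67 and -55 and the second at -199 and -135 relative to the start. NFKBIA held 1 at -81, NFKB1 1 at -49 and TRAF3 1 at -33. The NFKB2 stretch held 4 matches at 2 places, at -107 and -78, since overlapping matches on either strand were counted, and a further NFKB2 window, not shown, held it as well. The windows of RELA and MAP3K14 held no match. A match describes these letters only.

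The transcript levels are in TPM (transcript abundance scaled for transcript length and for the library total, so that levels can be compared between genes). The 4 libraries summed to between 994463 and 994718 TPM, and an approximate depth of 8610000 to 9580000 reads was derived from the steps between low values. Pearson's r, taken over genes that are not independent of each other, was 0.992 between the DMSO libraries, 0.990 between the JG342 libraries and 0.972 to 0.975 between treatments. All 8 plasma cell markers were in the table, with a summed level of 4730 and 4110 TPM with DMSO and 4645 and 4368 TPM with JG342. Of 8 markers of other blood cells 6 were in the table, with a summed level of 57.0 and 64.1 TPM with DMSO and 74.8 and 62.5 TPM with JG342. Most of that sum was the monocyte gene LYZ, at 36.96 and 45.05 TPM with DMSO and 46.2 and 38.95 TPM with JG342, above the plasma cell marker CD38 at 22.0 to 29.2 TPM over the libraries. The T-cell gene CD3D and the B-cell gene MS4A1 were the markers not in the table. The T-cell gene CD3E was at 3.21 to 7.70 TPM and the red-cell gene HBB at 7.34 to 11.4 TPM. Their log2 fold changes of −0.55 ± 0.23 SE and 0.47 ± 0.14 SE did not pass (limma adjusted p 0.132 and 0.0521). In a fit that blocks on the replicate number both passed (limma adjusted p 0.00753 and 0.00972). With that block and scaling to equal medians the limma adjusted p was 0.0559 and 0.0403. The B-cell factor PAX5 and the monocyte marker CD14 stayed under 1 TPM in every library, while the NK-cell marker NCAM1, also found on myeloma cells, rose (log2 fold change 1.13 ± 0.28 SE, limma adjusted p 0.0247). The part of such markers in the results below was not tested.

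Of the 10 genes only TNFAIP3 passed the threshold (limma, adjusted p under 0.05 over 12042 fitted genes), and it was lower with JG342. The other 9 missed it, which does not show that their levels were unchanged. That is 1 of 10, where 18.4% of all fitted genes passed, 7.62% as lower and 10.8% as higher. At an unadjusted limma p under 0.05 the count was 3 of 10 (TNFAIP3, BIRC3 and MAP3K14, all lower), against 33.6% of all fitted genes. The values of the 2 treatments did not overlap for 6 of the 10 genes (2 higher and 4 lower with JG342), against 62.1% of all fitted genes in either direction and 28.2% in the lower direction. Among the 10 genes the log2 fold change had its median at −0.13, and among all fitted genes at 0.03 (on the log2(TPM + 1) scale, as are all log2 fold changes here). These shares do not set the 10 genes apart from the rest of the table. In a fit that blocks on the replicate number, 4 of the 10 genes passed, where 34.9% of all genes did; those 4 were TNFAIP3, BIRC3 and MAP3K14 as lower and NFKBIA as higher.

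**Figure D1:**
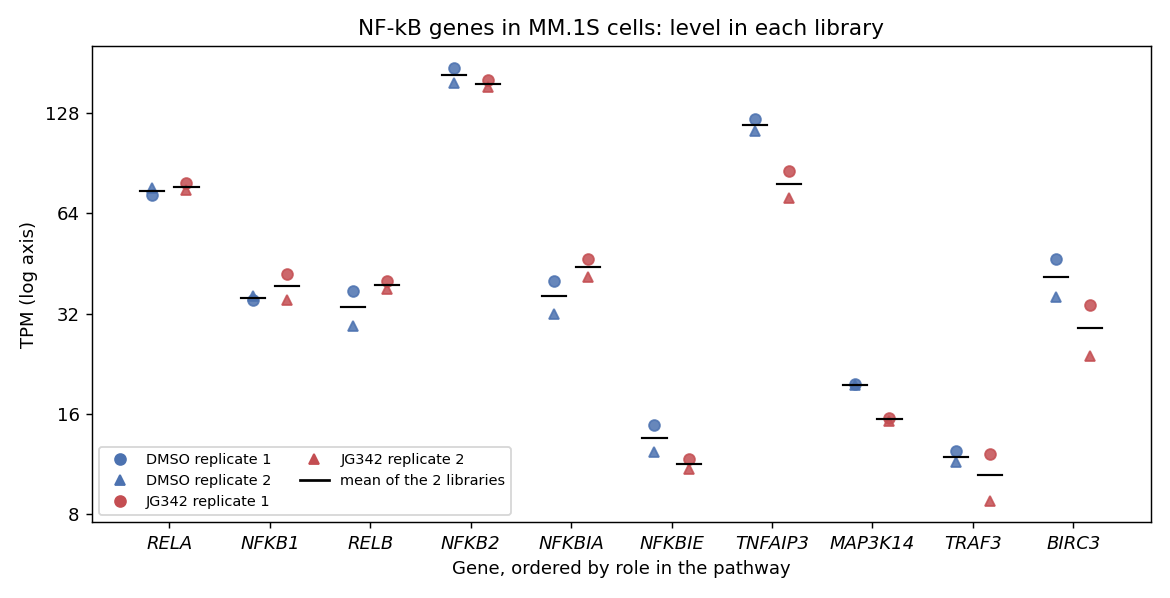
TPM of the 10 NF-kB genes on a log axis, ordered by role. Each point is a library (circle, replicate 1; triangle, replicate 2; blue, DMSO; red, JG342) and each bar the mean of 2 libraries. TNFAIP3, BIRC3, MAP3K14 and NFKBIE are lower in both JG342 libraries than in either DMSO library, and RELB and NFKBIA are higher.

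The subunits of the canonical dimer differed little. RELA (NM_001145138), which carries the transactivation domain, was at 72.5 and 76.4 TPM with DMSO and at 78.7 and 75.2 TPM with JG342. The values of the treatments overlapped, and the log2 fold change was 0.05 ± 0.10 SE (limma adjusted p 0.783), with a 95% interval of −0.18 to 0.27. NFKB1 (NM_001165412), whose precursor gives the other subunit, was at 35.0 and 36.1 TPM with DMSO and at 42.05 and 35.17 TPM with JG342. Only JG342 replicate 1 stood higher, and the log2 fold change was 0.11 ± 0.12 SE (limma adjusted p 0.566; 95% interval −0.17 to 0.39).

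The noncanonical subunits were not called either. NFKB2 (NM_001077494) had the highest level of the 10 genes in every library, with 175.5 and 158 TPM under DMSO and 161 and 153 TPM under JG342. These values overlapped, and the log2 fold change was −0.08 ± 0.10 SE (limma adjusted p 0.592; 95% interval −0.31 to 0.14). RELB (NM_006509), the partner of the processed NFKB2 product, was at 37.5 and 29.4 TPM with DMSO and at 40.1 and 37.9 TPM with JG342. Both JG342 libraries lay above both DMSO libraries, but DMSO replicate 1 came close to them, and the log2 fold change of 0.23 ± 0.14 SE did not pass (limma adjusted p 0.278; 95% interval −0.08 to 0.53).

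The inhibitors took opposite signs, and neither passed. NFKBIA (NM_020529), which encodes the main cytoplasmic inhibitor, was at 40.1 and 31.96 TPM with DMSO and at 46.8 and 41.2 TPM with JG342. Its JG342 libraries lay above its DMSO libraries by a small gap, and the log2 fold change was 0.29 ± 0.14 SE (limma adjusted p 0.174; 95% interval −0.02 to 0.60). Under the replicate block the limma adjusted p was 0.0306, and under the block and scaling to equal medians it was 0.103. NFKBIE (NM_004556), which encodes IkB-epsilon, was at 14.8 and 12.3 TPM with DMSO and at 11.7 and 10.9 TPM with JG342. Both JG342 libraries were lower, but DMSO replicate 2 lay closer to them than to DMSO replicate 1, and the log2 fold change was −0.24 ± 0.15 SE (limma adjusted p 0.295; 95% interval −0.57 to 0.10).

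TNFAIP3 (NM_001270507) fell. It encodes A20, a ubiquitin-editing enzyme that shuts off canonical signalling, and its level was 123 and 113 TPM with DMSO and 85.5 and 70.96 TPM with JG342. All values with JG342 lay well below those with DMSO, with means of 118 ± 6.70 TPM (SD, n = 2) and 78.3 ± 10.3 TPM. The log2 fold change was −0.59 ± 0.12 SE (limma adjusted p 0.0102; 95% interval −0.85 to −0.33). By the approximate depth, these values rest on about 2700, 2500, 1800 and 1700 reads. The difference was −0.51 in the pair of libraries numbered 1 and −0.67 in the pair numbered 2. Without DMSO replicate 1 the log2 fold change was −0.53 and the limma adjusted p 0.0678, and with no filter on low values the adjusted p was 0.0596.

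Both NFKBIA and TNFAIP3 are widely used as readouts of NF-kB activity and carry the motif in the stretches printed above, while their log2 fold changes had opposite signs. The ratio of TNFAIP3 to NFKBIA within a library was 3.06 and 3.54 with DMSO and 1.83 and 1.72 with JG342. The treatments did not overlap in this ratio, which was 1 of 5 ratios between pathway genes computed and was chosen after its values were seen. Nor did they overlap in the ratios of BIRC3 to BIRC2, TRAF2 to TRAF3 and NFKB2 to NFKB1, so this does not single out TNFAIP3 to NFKBIA. The two-sided exact permutation p of TNFAIP3 to NFKBIA was 0.333 (0.417 adjusted over the 5 ratios). That is the smallest that 2 libraries against 2 can give, so the test could not have passed.

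Among the regulators of NIK, BIRC3 had the largest estimated difference, which did not pass. BIRC3 (NM_001165), which encodes cIAP2, was at 46.7 and 36.0 TPM with DMSO and at 34.0 and 23.9 TPM with JG342. Replicate 2 was the lower library in both treatments, so that JG342 replicate 1 lay just under DMSO replicate 2. The log2 fold change of −0.51 ± 0.18 SE did not pass (limma adjusted p 0.0834; 95% interval −0.92 to −0.10). The difference was −0.45 in pair 1 and −0.57 in pair 2. Under the replicate block BIRC3 passed (limma adjusted p 7.99e-05), in a fit where a gene's level alone set its variance. With the block and scaling to equal medians BIRC3 had a limma adjusted p of 0.0018. Without JG342 replicate 1 it also passed, at −0.76 (limma adjusted p 0.0165), whereas without JG342 replicate 2 the value was −0.26 (limma adjusted p 0.328) and without DMSO replicate 1 it was −0.33 (limma adjusted p 0.37).

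MAP3K14 (NM_003954), the kinase NIK itself, was at 19.7 and 19.5 TPM with DMSO and at 15.6 and 15.2 TPM with JG342. Its replicates agreed closely and the treatments were well apart, by −0.32 in pair 1 and −0.33 in pair 2. The log2 fold change of −0.33 ± 0.12 SE did not pass (limma adjusted p 0.0973; 95% interval −0.61 to −0.05). It passed under the replicate block (limma adjusted p 0.0451), with scaling to equal medians (0.0489), with both (0.0192) and with quantile normalization (0.0473). TRAF3 (NM_001199427), the adaptor that brings NIK to its ubiquitin ligases, was the lowest of the 10 genes on average, at 12.3 and 11.5 TPM with DMSO and at 12.1 and 8.77 TPM with JG342. Only JG342 replicate 2 stood lower, and the log2 fold change was −0.19 ± 0.17 SE (limma adjusted p 0.479; 95% interval −0.57 to 0.20).

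**Figure D2:**
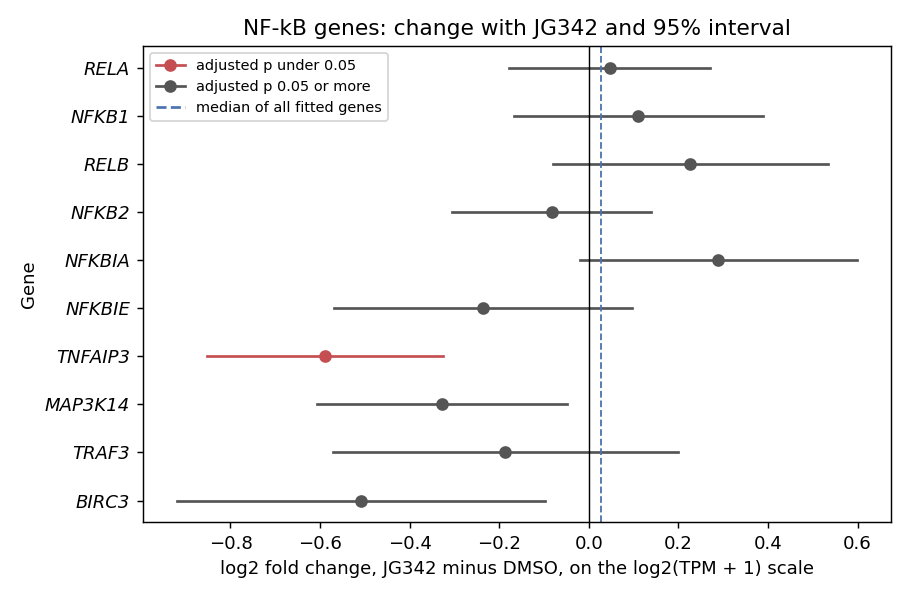
Log2 fold change of each NF-kB gene with its 95% interval from the limma fit (JG342 minus DMSO on the log2(TPM + 1) scale; dashed line, median of all fitted genes at 0.03). TNFAIP3 (red) is the gene past the adjusted threshold; the intervals of BIRC3 and MAP3K14 also lie below 0 before adjustment.

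**Figure D3:**
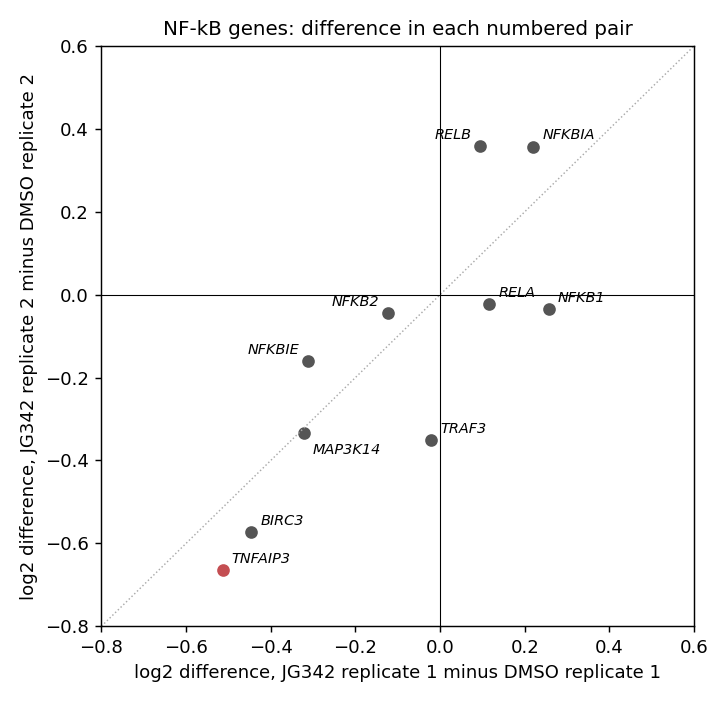
Difference between JG342 and DMSO on the log2(TPM + 1) scale in the libraries numbered 1 (horizontal) and numbered 2 (vertical), with the line of equality dotted. TNFAIP3 (−0.51 and −0.67), BIRC3 and MAP3K14 lie low in both pairs, while RELA and NFKB1 change sign between pairs.

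The order of the levels shifted in its middle. With DMSO the order ran NFKB2, TNFAIP3, RELA, BIRC3, NFKBIA, NFKB1, RELB, MAP3K14, NFKBIE and TRAF3. The 4 genes from BIRC3 to RELB overlapped from each neighbour to the next, as did NFKBIE and TRAF3, and the other neighbours were apart. With JG342 the mean of TNFAIP3, at 78.3 TPM, came down to that of RELA, at 76.9 ± 2.51 TPM (SD, n = 2), and the values of the genes overlapped. BIRC3, at 28.9 ± 7.16 TPM, moved from place 4 to place 7, below NFKBIA, RELB and NFKB1, and did not overlap with its neighbours there.

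Genes with a profile like that of TNFAIP3, the gene with the smallest p, were sought over the 4 libraries by the Euclidean distance between log2(TPM + 1) values centred on each gene's mean. The nearest 3 outside the 10 genes were ASRGL1 (distance 0.0477), SNX10 (0.0486) and SAMD1 (0.0595). Over 4 libraries such a likeness is common: 200 genes lay within a distance of 0.2.

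The rest of the pathway was read from 7 lists of 86 further genes, 82 of them in the table and 70 fitted. In these lists 9 genes passed as higher and 9 as lower, and after scaling to equal medians 6 as higher and 8 as lower. The 18 genes are 18 of 70 fitted, beside 18.4% of all fitted genes (10.8% higher, 7.62% lower). Over the whole table the share of higher genes among those past the threshold was 58.7%, or 44.6% after that scaling. Of the 18 genes called, RBCK1 and CXCL10 passed whichever library was left out, and the other 16 lost their call without at least 1 library. The number past the threshold was 9 without DMSO replicate 1, 4 without DMSO replicate 2, 9 without JG342 replicate 1 and 19 without JG342 replicate 2, and it was 33 under the replicate block, where 34.9% of all genes passed. With no filter on low values 5 of the 18 still passed (IKBKE, BIRC2, RBCK1, TNFRSF13B and CXCL10), and without a trend in eBayes 9 did, these 5 and NFKBIZ, TRAF2, TRADD and RNF11. Values without a library are given below, each with the limma adjusted p.

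**Figure D4:**
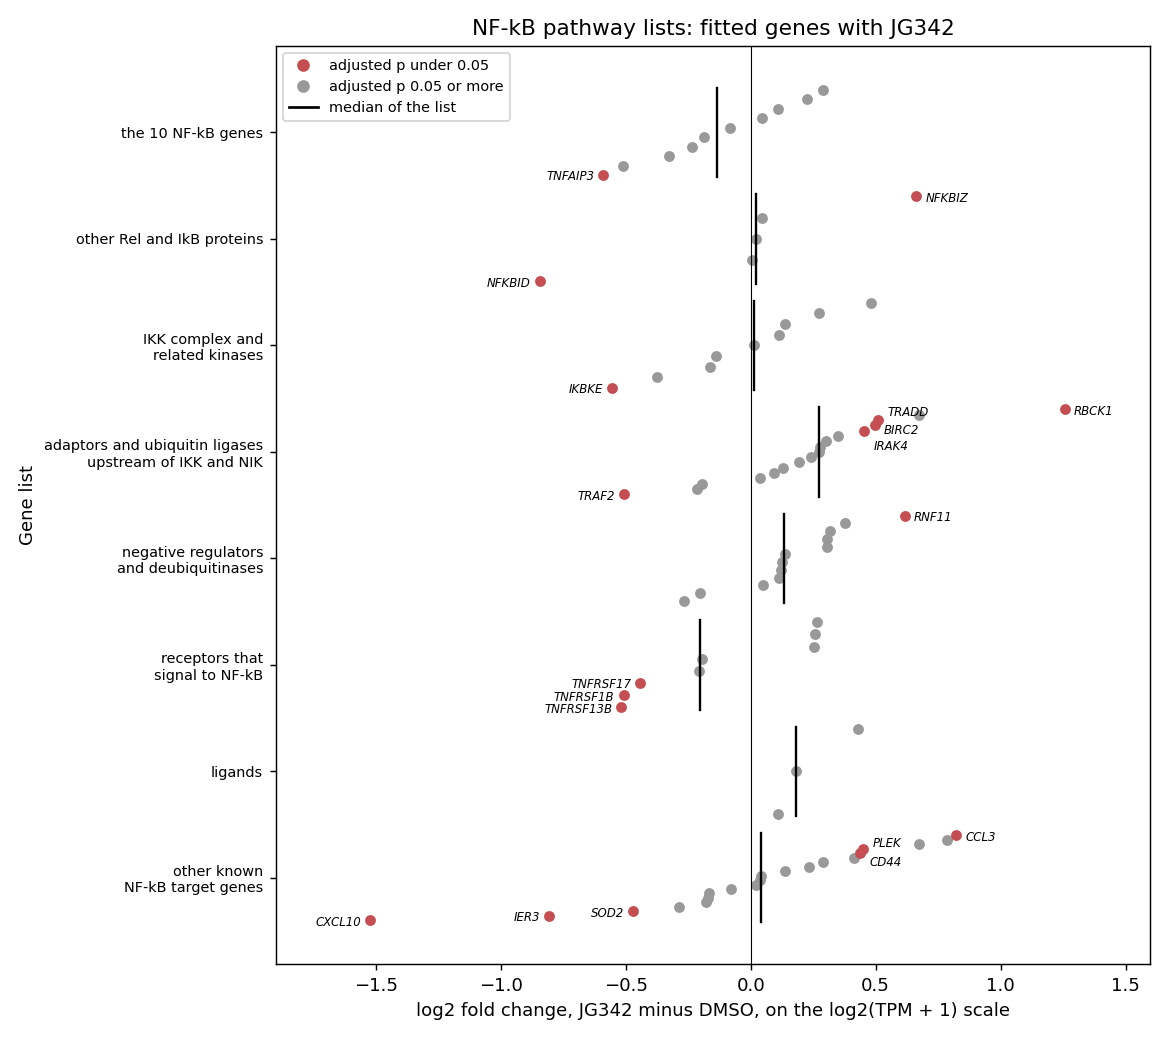
Log2 fold change (JG342 minus DMSO, on the log2(TPM + 1) scale) of the fitted genes in each list, with the 10 NF-kB genes on top. Points are genes (red, limma adjusted p under 0.05, with the symbol) and vertical bars are list medians; RBCK1 at 1.26 and CXCL10 at −1.52 lie farthest out.

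Of the 5 remaining Rel and IkB genes, 1 passed as higher and 1 as lower, and both encode atypical nuclear IkB proteins. Over all fitted genes 10.8% passed as higher and 7.62% as lower. NFKBIZ (NM_001005474) rose from 5.55 and 5.20 TPM with DMSO to 9.88 and 8.35 TPM with JG342, by 0.66 ± 0.16 SE (limma adjusted p 0.0217). NFKBID (NM_001321831) fell from 4.42 and 6.98 TPM to 2.19 and 3.21 TPM, by −0.84 ± 0.23 SE (limma adjusted p 0.0378). Neither gene overlapped between treatments, nor did 62.1% of all fitted genes. NFKBIZ did not pass without DMSO replicate 1 (0.70, limma adjusted p 0.0799), DMSO replicate 2 (0.62, 0.122) or JG342 replicate 1 (0.55, 0.0895), nor NFKBID without DMSO replicate 2 (−0.56, 0.246) or JG342 replicate 1 (−0.64, 0.12). REL, NFKBIB and BCL3 differed by between 0.0043 and 0.047 on the log2 scale and did not pass.

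In the list of the IKK complex, its TAK1 and TAB activators and the IKK-related kinases, 1 of 9 genes passed. Over all fitted genes 18.4% did. IKBKE (NM_001193321), an IKK-related kinase, fell from 37.1 and 35.8 TPM with DMSO to 24.6 and 24.4 TPM with JG342, by −0.55 ± 0.11 SE (limma adjusted p 0.0108). Its replicates were tight, but it did not pass without DMSO replicate 1 (−0.53, limma adjusted p 0.0732) or DMSO replicate 2 (−0.58, 0.0675). The core subunits IKBKB and IKBKG differed by 0.14 ± 0.12 SE and 0.02 ± 0.12 SE. CHUK, the IKK-alpha kinase on which NFKB2 processing depends, was at 21.3 and 25.4 TPM with DMSO and at 20.02 and 15.6 TPM with JG342. Its difference of −0.38 ± 0.16 SE missed the threshold (limma adjusted p 0.126; 0.0143 under the replicate block, 0.0296 under the block with scaling).

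Of 17 adaptors and ubiquitin ligases upstream of IKK and NIK, 4 passed as higher and 1 as lower, and the median log2 fold change was 0.27. Over all fitted genes 10.8% passed as higher and 7.62% as lower, with a median of 0.03. With scaling to equal medians and with quantile normalization 3 of these adaptors passed as higher, and the median was 0.21 and 0.19. RBCK1 (NM_001323956), the HOIL-1 subunit of the complex that builds linear ubiquitin chains, rose most, from 36.4 and 38.7 TPM with DMSO to 86.6 and 95.8 TPM with JG342. The log2 fold change was 1.26 ± 0.11 SE (limma adjusted p 0.000227), and RBCK1 passed under all 12 alternatives. The other subunits of that complex did not pass, with RNF31 at 0.24 ± 0.13 SE and SHARPIN at 0.28 ± 0.11 SE (limma adjusted p 0.109; 0.0277 under the replicate block, 0.0802 under the block with scaling). TRADD (NM_001323552), the TNF receptor adaptor, rose by 0.51 ± 0.11 SE (limma adjusted p 0.0163; 0.127 without DMSO replicate 2, at 0.41). IRAK4 (NM_001114182), the kinase next to MYD88, rose by 0.45 ± 0.13 SE (limma adjusted p 0.0371), and did not pass without DMSO replicate 1 (0.38, 0.186), DMSO replicate 2 (0.53, 0.0968) or JG342 replicate 1 (0.34, 0.157), nor with scaling to equal medians (0.0514) or quantile normalization (0.0501).

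The partners of TRAF3 and BIRC3 in the complex that keeps NIK low moved apart. TRAF2 (NM_021138), which links TRAF3 to the cIAP ligases, fell from 36.6 and 34.0 TPM with DMSO to 23.4 and 25.8 TPM with JG342, by −0.51 ± 0.12 SE (limma adjusted p 0.0196). BIRC2 (NM_001166), which encodes cIAP1, rose from 33.3 and 31.4 TPM to 46.3 and 45.9 TPM, by 0.50 ± 0.11 SE (limma adjusted p 0.0145). Neither overlapped between treatments, nor did 62.1% of all fitted genes. TRAF2 did not pass without DMSO replicate 1 (−0.45, limma adjusted p 0.122), DMSO replicate 2 (−0.56, 0.0803) or JG342 replicate 1 (−0.44, 0.0727), nor BIRC2 without DMSO replicate 1 (0.54, 0.0568) or DMSO replicate 2 (0.46, 0.104). The ratio of BIRC3 to BIRC2 within a library was 1.40 and 1.15 with DMSO and 0.734 and 0.520 with JG342, so the more abundant cIAP transcript was BIRC3 with DMSO and BIRC2 with JG342. The ratio was chosen after its values were seen, and its two-sided exact permutation p was 0.333 (0.417 adjusted over the 5 ratios).

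Of 12 negative regulators and deubiquitinases, RNF11 alone passed, where 18.4% of all fitted genes did. RNF11 (NM_014372), a partner of A20 in its ubiquitin-editing complex, rose from 41.3 and 38.1 TPM with DMSO to 68.4 and 55.1 TPM with JG342, by 0.62 ± 0.13 SE (limma adjusted p 0.0126). It did not pass without DMSO replicate 2 (0.56, limma adjusted p 0.0877) or JG342 replicate 1 (0.46, 0.0523). The other members of that complex, ITCH and TAX1BP1, differed by 0.32 ± 0.13 SE and 0.31 ± 0.10 SE without passing (limma adjusted p 0.129 and 0.066; 0.0226 and 0.0104 under the replicate block; 0.0903 and 0.048 under the block with scaling to equal medians), while TNFAIP3 itself fell.

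Among receptors that signal to NF-kB, 8 of 13 were fitted and 3 passed, all lower, where 7.62% of all fitted genes passed as lower. The count was 2 with scaling to equal medians and with quantile normalization, and 1 with no filter or without a trend. TNFRSF17, known as BCMA (NM_001192), was at 761 and 582 TPM with DMSO and at 517 and 463 TPM with JG342, a difference of −0.44 ± 0.13 SE (limma adjusted p 0.0472). TNFRSF13B, known as TACI (NM_012452), was at 253 and 241 TPM with DMSO and at 170 and 174 TPM with JG342, a difference of −0.52 ± 0.09 SE (limma adjusted p 0.00633). These are the receptors for APRIL and BAFF on plasma cells, and neither overlapped between treatments, nor did 62.1% of all fitted genes. TNFRSF1B, a TNF receptor (NM_001066), fell from 18.1 and 21.5 TPM to 13.7 and 13.5 TPM, by −0.51 ± 0.14 SE (limma adjusted p 0.0335). TNFRSF17 did not pass without DMSO replicate 1 (−0.25, limma adjusted p 0.288) or JG342 replicate 2 (−0.36, 0.134), nor with scaling to equal medians (0.0554) or quantile normalization (0.0889), and TNFRSF13B not without DMSO replicate 1 (−0.48, 0.0506). TNFRSF1B did not pass without any 1 of the 4 libraries, with limma adjusted p of 0.0621 and 0.237 without DMSO replicates 1 and 2 and of 0.0698 and 0.0731 without JG342 replicates 1 and 2, and values between −0.63 and −0.39. Of the 9 ligands 6 were in the table and 3 fitted (LTA, TNFSF13 and TNFSF13B), and none of them passed, with limma adjusted p of 0.321 to 0.607 and unadjusted p of 0.162 to 0.434. LTA, the lymphotoxin-alpha gene, passed under the replicate block (limma adjusted p 0.0161) but not under the block with scaling (0.0903). LTA was at 10.3 and 7.86 TPM with DMSO and at 17.9 and 8.57 TPM with JG342.

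The known NF-kB target genes outside the 10 moved both ways. Of 20 fitted targets 3 passed as higher and 3 as lower, where 10.8% and 7.62% of all fitted genes did. Their median log2 fold change was 0.04 (−0.03 after scaling to equal medians). CXCL10 (NM_001565), a chemokine that also responds to interferon, fell from 12.1 and 10.96 TPM with DMSO to 4.36 and 2.53 TPM with JG342, by −1.52 ± 0.21 SE (limma adjusted p 0.00248). CCL3 (NM_002983), a chemokine that myeloma cells secrete, rose from 4210 and 2718 TPM to 7116 and 5035 TPM, by 0.82 ± 0.21 SE (limma adjusted p 0.0285). The near-identical copies CCL3L1 and CCL3L3 may share reads with CCL3, and the summed level of the 3 genes differed by 0.74 on the log2 scale, from 5627 and 3255 TPM to 8800 and 5837 TPM. CCL3 did not pass without DMSO replicate 2 (0.51, limma adjusted p 0.211) or JG342 replicate 1 (0.57, 0.0862), nor with scaling to equal medians (0.0763), with quantile normalization (0.0906), without a trend (0.0807) or with no filter (0.159).

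Like 62.1% of all fitted genes, the other 4 targets past the threshold did not overlap between treatments. PLEK, a myeloma NF-kB marker gene, and CD44, an adhesion receptor, rose by 0.45 ± 0.10 SE and 0.44 ± 0.13 SE (limma adjusted p 0.018 and 0.0468). SOD2, the mitochondrial superoxide dismutase, and IER3, an early response gene, fell by −0.47 ± 0.13 SE and −0.81 ± 0.24 SE (limma adjusted p 0.0392 and 0.045). PLEK did not pass without DMSO replicate 1 (0.49, limma adjusted p 0.0647), DMSO replicate 2 (0.41, 0.12) or JG342 replicate 1 (0.42, 0.0661), and CD44 not without the same libraries (0.57, 0.31 and 0.28, with 0.0581, 0.289 and 0.194) or with scaling to equal medians (0.106). SOD2 did not pass without DMSO replicate 1 (−0.45, 0.158), DMSO replicate 2 (−0.49, 0.148) or JG342 replicate 2 (−0.32, 0.161), and IER3 not without DMSO replicate 2 (−0.47, 0.289) or JG342 replicate 2 (−0.68, 0.115). CD74 and IL2RG, targets often read in myeloma, differed by 0.041 ± 0.16 SE and −0.17 ± 0.096 SE and did not pass.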

How the data were processed

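The authors deposited TPM values, 1 per gene and library, each gene with a symbol and a RefSeq accession. The unit was inferred from the library totals, which are nearly equal and close to, though a little under, the sum that TPM should give. HISAT2 2.0.4, Bowtie2 2.2.5 and RSEM 1.2.12 are named per the submitters' processing notes, without roles. The genome build, the annotation, strand use, and whether a value covers 1 transcript or the gene are not given in the sources used here.

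Values were transformed to log2(TPM + 1), which understates changes of low genes. A gene needed a mean of 1 TPM over the libraries to be fitted, which left 12042; these were fitted with limma 3.58.1 in R 4.3.3 (treatment as the only term, eBayes with a mean-variance trend, 2 residual and 6.89 prior degrees of freedom). Two-sided p-values were adjusted over all fitted genes (Benjamini-Hochberg), with a threshold of 0.05. The fit was tested on simulated data, where it missed most of the smaller changes put in. Far fewer genes were changed there than passed in the data, which makes the adjusted threshold harder to pass. The simulation therefore does not tell what share of changes the fit missed here. Intervals are 95% intervals of the fit, unadjusted. The replicate numbers were taken to pair the libraries. This assumption rests on libraries with the same number having the same code at the start of their descriptions, whose meaning is not explained. Deviations of same-numbered libraries from the treatment means correlated across genes (Pearson r 0.275, Spearman rho 0.304, 2 pairs). Swapping the numbers within either treatment would only turn the sign of this correlation, so it cannot show that the libraries are paired. On the assumption of pairing, a fit with the replicate number as a block was an alternative. Its value stands beside each of the 10 genes and each named list or marker gene where it changes the call. Approximate depths came from GENCODE 29 transcript lengths and the commonest step between low values, and entered no test. All 10 genes were named whatever their values, as was each list gene past the threshold, or the 5 with the smallest p in a longer list (the target list has 6, and CD44, the sixth, is named in addition). The 3 genes nearest TNFAIP3 in profile were named too. CD44 and every other list or marker gene that did not pass were named after their values were seen. The 10 genes and the lists were chosen with earlier results of these data known. The libraries are the replicates (n = 2), and p-values refer only to the spread between libraries of this line. For each gene that spread was drawn toward a trend over all fitted genes, so it is not the gene's own spread alone.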

Additional observations from a re-analysis of the deposited data

How the results depend on the processing

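Under 12 alternatives the number of genes past the threshold (2221, of them 917 lower) was 828 (295 lower) with no filter on low values, 4207 (1891 lower) with a replicate block, 3985 (2310 lower) with a replicate block and scaling to equal medians, and from 767 to 1825 (192 to 718 lower) when each library was left out, with 767 without DMSO replicate 2 and 1046 without DMSO replicate 1; without a trend in eBayes 526 were lower. Of the 10 NF-kB genes, 1 passed in the main analysis, 0 with no filter, 2 with scaling to equal medians, 2 with quantile normalization, 4 with the replicate block (3 of them lower), 3 with the block and scaling, and 0 (without DMSO replicate 1) to 2 (without JG342 replicate 1) when each library was left out. The block turned no called gene named here into one not past the threshold. All passing genes were lower in each of these but for NFKBIA in the block alone. The block fit had an infinite prior, so that a gene's level alone set its variance. Of the pathway list genes, 18 passed in the main analysis, 5 with no filter, 33 with the replicate block (22 higher and 11 lower), 28 with the block and scaling, 9 without a trend, and 4 to 19 when each library was left out. RELA changed sign, to −0.021, with scaling to equal medians, with or without the block. NFKB1 ran from −0.015 to 0.24 and TRAF3 from −0.40 to 0.026 when each library was left out. The other 7 of the 10 genes kept their sign under all 12. The cause of these shifts was not tested. The approximate depth leaves TRAF3 with the fewest reads of the 10 genes, from about 78 to 100.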

Other observations

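Pathway genes under the filter of 1 TPM were not fitted, and values of some of them are given without a test. All of these values are near the floor. TNFRSF8, known as CD30, was at 0.74 and 0.81 TPM with DMSO and at 0.25 and 0.28 TPM with JG342. CD83 went the other way, at 0 and 0.09 TPM with DMSO and at 0.20 and 0.18 TPM with JG342. TNFRSF13C, LTBR, TNFRSF11A, IL1R1, CD40LG, BCL2A1 and IL6 were also not fitted, and each overlapped between treatments. The cytokine genes TNF and CXCL8 were listed at 0 or at most 0.13 TPM in every library. LTB was at 0.26 and 0.79 TPM with DMSO and at 0.26 and 0 TPM with JG342.

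The plasma cell factor IRF4, a gene that NF-kB is known to drive in B-lineage cells, was on the marker list and rose from 353 and 353 TPM with DMSO to 589 and 615 TPM with JG342, by 0.77 ± 0.09 SE (limma adjusted p 0.000986). PRDM1, another plasma cell factor, rose by 0.36 ± 0.10 SE (limma adjusted p 0.041). Of the 8 markers on that list 3 had a positive log2 fold change and 5 a negative one. TNFRSF17, given above, passed as lower. SDC1 differed by −0.25 ± 0.16 SE without passing (limma adjusted p 0.292, with 0.00764 under the replicate block and 0.0196 under the block with scaling).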
